A study of Mus musculus with 6 samples.

Results

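Gelsolin (Gsn) and 9 relatives or partners in actin filament turnover were followed in bone marrow hematopoietic stem cells (HSCs) of WT and Med23 knockout (KO) mice. The 10 genes, Gsn, Capg, Scin, Flii, Svil, Avil, Cfl1, Cfl2, Dstn and Pfn1, were chosen from their names around Gsn, and Gsn itself on its counts in these same KO and WT libraries, whose difference was already known. Differences between KO and WT among them are therefore given as a description. Where the fit over all genes called a member, the call is named, but the choice of Gsn fixed it and nothing is read from it. All 10 were found among the 34745 genes of the count and FPKM tables, and 8 of them passed a filter on low counts, with 12513 genes in all. Scin and Avil did not pass.

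RNA of sorted bone marrow HSCs was sequenced in bulk, in 3 WT and 3 KO libraries, to find how loss of Med23, a subunit of the mediator complex, alters their transcripts. The sort took CD150+CD34-CD48- LSK cells (lineage-negative, Sca1-positive, cKit-positive). All mice were adult C57BL/6 animals with floxed Med23 alleles, genotype WT(Med23floxp/flowp) for controls and KO(Mx1-cre;Med23floxp/flowp) for the deleted animals. By the methods, deletion was induced by poly(I:C), which switches on the interferon-responsive Mx1 promoter, and Mx1-cre is not restricted to HSCs. In the paper, WT mice used for blood counts had received poly(I:C) too, and controls are described as littermates without Mx1-cre. For these libraries the labels and methods state neither the treatment of the controls, nor exact ages, nor whether each library came from a separate mouse, so any p-value measures only the spread between these samples. The labels name SMART-Seq v4 amplification whereas the methods name a TruSeq kit. Reads counted on genes came to 4750410, 8131344 and 3537269 in WT libraries 1 to 3 and to 4760545, 5281232 and 5132601 in KO libraries 1 to 3. CPM is the number of reads on a gene scaled by depth and by the TMM factor of its library, and values are given in the order of libraries 1 to 3.

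Med23 itself was read first as a check of the labels. Its level was 47.6, 70.8 and 24.1 in WT and 31.6, 29.8 and 36.8 CPM in KO. The library labelled WT replicate 3 lay below every KO library, and the groups overlapped. The paper reports, from its bulk RNA sequencing of HSCs, Cd68 as higher and Ly6a as lower in KO. Cd68 stood at 14.1, 23 and 40.8 in WT and 60.6, 71.9 and 93.9 CPM in KO. Ly6a stood at 216, 152 and 205 in WT and 103, 81.4 and 151 CPM in KO. For both genes the library labelled WT replicate 3 lay on the WT side of all KO libraries. These genes were reported from the same bulk data with the labels in use, so they cannot check that label. Whether the label of that library is right was not tested. The Med23 log2 fold change of KO over WT was -0.54 ± 0.41 (SE, n = 3 per group), not past the threshold of the edgeR quasi-likelihood test (adjusted p = 0.99). With the other 5 libraries it was -0.85 ± 0.34 (edgeR, adjusted p = 0.67). Over all fits with 1 library left out, the Med23 difference lay between -0.85 and -0.13, so its size depended on the library dropped. The 4 Y-linked genes summed to 212, 228 and 0.309 CPM in WT and 309.8, 292 and 0 CPM in KO, so both libraries numbered 3 lacked these transcripts that the other 4 carried. Transcripts of all 12 listed HSC markers were counted, with a sum of 2887, 3383 and 3068 CPM in WT and 3136, 3161 and 2981 CPM in KO, Kit having the most reads. Of these 12, edgeR and DESeq2 called 0, and 2 were higher and 2 lower in KO at an unadjusted p under 0.05. Cd3e, Cd8a and Ly6g, markers of the lineages sorted away, were at 0 in all 6 libraries, but Cd4, Cd48 and Cd34, also sorted against, were not. Cd4 had 47, 1 and 14 reads in WT and 0, 14 and 0 in KO, and Cd48 10, 28 and 0 reads in WT and 0, 0 and 0 in KO. Cd34 stood at 296, 360.1 and 343 in WT and 519.7, 384 and 414 CPM in KO. Flt3, in the same list though not used in this sort, stood at 42.9, 50.1 and 79.7 in WT and 46, 44 and 107 CPM in KO.

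Actin filaments grow at their barbed ends and are taken apart at their pointed ends, and the balance sets cell shape, adhesion and movement. Gelsolin, once bound by calcium, cuts a filament and stays on the new barbed end as a cap, cofilin and destrin sever and depolymerize older filaments, and profilin hands actin monomers back to growing ends. In blood cells this turnover serves migration, homing to bone marrow, engulfment and platelet shedding.

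Gsn (ENSMUSG00000026879, chr2:35256380-35307892 on the plus strand in GRCm38) had 128, 427 and 105 reads in WT and 997, 935 and 789 in KO. As CPM these were 26.2, 52.5 and 32.5 in WT and 202, 170.2 and 159.7 in KO. Each KO library was above each WT library, the lowest KO value exceeding the highest WT value, which was that of WT 2. Mean levels were 37.1 ± 13.7 CPM in WT and 177 ± 22 CPM in KO (SD, n = 3 each). The log2 fold change of KO over WT was 2.25 ± 0.31 (SE), a fold of 4.76, and 2.16 ± 0.34 without the library labelled WT replicate 3. More cells carrying the transcript and more of it in each cell cannot be told apart in bulk samples. Leaving out 1 library at a time gave log2 fold changes between 2.05 and 2.60. All 6 kept the sign, but the call was lost without WT 1 (2.05), the library labelled WT replicate 3 (2.16), KO 1 (2.15), KO 2 (2.28) or KO 3 (2.32), and held without WT 2 (2.60). The call was also lost with the replicate number as a block in the fit (2.30, edgeR adjusted p = 0.063) and without both libraries numbered 3 (2.24).

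GENCODE M21 annotates 2 Gsn transcripts with consensus coding sequences. Gsn-205, which begins at chr2:35256380, encodes 731 residues, the length of the cytoplasmic form, and Gsn-201, which begins at chr2:35282380 inside the same gene, encodes 780, the length of the secreted form. Reads were counted per gene, so the tables do not separate these forms. RefSeq promoter windows matched 9 of the 10 members by symbol (all but Svil), with 3 windows for Gsn. The 250 bases upstream of the starts nearest to those of the 2 transcripts are shown, because the result turns on Gsn and the counts do not say from which start its reads came. They come from RefSeq GRCm38.p6, plus strand, at chr2:35256109-35256358 for the upstream start and chr2:35282130-35282379 for the inner one. Capitals mark matches, on either strand, to GAGGAA (a core bound by Ets factors), GGGCGG (the GC box), TGANTCA (AP-1), GCGNGGGCG (EGR) or the CArG box.
Gsn upstream start: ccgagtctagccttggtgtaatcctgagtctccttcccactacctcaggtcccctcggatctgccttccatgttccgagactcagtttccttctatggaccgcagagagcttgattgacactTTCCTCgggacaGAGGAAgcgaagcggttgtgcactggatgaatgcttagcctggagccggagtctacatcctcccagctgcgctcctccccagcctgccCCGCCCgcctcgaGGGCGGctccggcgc
Gsn inner start: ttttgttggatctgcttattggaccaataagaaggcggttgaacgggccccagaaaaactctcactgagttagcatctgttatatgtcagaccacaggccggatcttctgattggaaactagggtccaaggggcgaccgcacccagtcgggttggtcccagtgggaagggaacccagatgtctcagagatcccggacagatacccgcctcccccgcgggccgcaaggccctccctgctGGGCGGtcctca
These motifs were picked after the sequences were seen, and GGGCGG can share bases with GCGNGGGCG. The upstream window held 2 matches to GAGGAA and 2 to GGGCGG, and the inner window 1 to GGGCGG; the remaining motifs had none in either window. Of all 32851 promoter windows of the same length, 23.3% held GAGGAA, 32.7% GGGCGG, 6.75% TGANTCA, 4.7% GCGNGGGCG and 1.47% the CArG box. The 2 windows had GC contents of 60.8 and 57.6%.

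Among the other gelsolin relatives, Capg (chr6:72544391-72562983), which caps barbed ends without cutting filaments, stood at 323, 371 and 533 in WT and 404, 541 and 555 CPM in KO. The groups overlapped, since the library labelled WT replicate 3 lay above KO 1, and the log2 difference was 0.29 ± 0.24. Without that library the Capg difference was 0.53 ± 0.22, the highest with single libraries left out, and without WT 1 it was 0.15, the lowest. Flii (chr11:60714123-60727263), a gelsolin relative with leucine-rich repeats that also acts with nuclear receptors, was read at 164, 222 and 136 in WT and 221, 172 and 147 CPM in KO. WT 2 and KO 1 were the highest and the library labelled WT replicate 3 the lowest, so the groups overlapped, with a log2 difference of 0.05 ± 0.25, which lay between -0.12 and 0.27 with single libraries left out. Flii shares 64 exonic bases with Llgl1 on the opposite strand, and, as the use of strand in counting is not given, reads from such pairs cannot be told apart here.

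Svil, supervillin, which ties actin and myosin to the membrane, had 91.9, 72.8 and 44.5 in WT and 65.6, 68.2 and 82.2 CPM in KO. WT libraries spread more widely than KO libraries and enclosed them, from the library labelled WT replicate 3 at the bottom to WT 1 at the top, and the log2 difference was 0.04 ± 0.32 (between -0.19 and 0.29 with single libraries left out). Scin (scinderin, a calcium-dependent severing protein, chr12:40059769-40134228) had a single read in all 6 libraries, in KO 2, so no fold is given. Avil (advillin, chr10:127000709-127020994) had 2, 2 and 0 reads in WT and 7, 6 and 4 in KO. Although each KO library was above each WT library, 4 reads in WT against 17 in KO give a depth-adjusted ratio of 4.49 with a 95% exact binomial interval from 1.47 to 18.4, and such intervals and floors cover counting error only, as the reads carry no molecular identifiers. Avil also shares 165 exonic bases with Tsfm on the opposite strand, a gene with 1346 reads.

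Among the cofilins no member had groups that stood apart. Cfl1 (chr19:5490455-5495201), the main non-muscle cofilin, stood at 1084, 1010 and 1405 in WT and 867, 968 and 1463 CPM in KO. KO 3 and the library labelled WT replicate 3 were highest and the groups overlapped, with a log2 difference of -0.09 ± 0.23 (between -0.34 and 0.07 with single libraries left out). Cfl1 shares 468 exonic bases with Snx32 on the opposite strand. Cfl2 (chr12:54858809-54862877), known as the muscle cofilin, was read at 79.8, 21.8 and 59 in WT and 54.5, 48 and 48.6 CPM in KO. WT 2 was the lowest of the 6 libraries and WT 1 the highest, while the KO libraries lay close together between them. The log2 difference was -0.08 ± 0.43, but 0.33 without WT 1 and -0.46 without WT 2. Cfl2 shares 81 exonic bases with the noncoding gene 1700081N11Rik. Dstn (chr2:143915320-143943324), destrin, stood at 170.4, 133 and 139.7 in WT and 126, 134 and 135 CPM in KO. WT 1 was the highest library and the rest lay within a narrow band, KO 3 above WT 2, so the groups overlapped, with a log2 difference of -0.17 ± 0.21 (between -0.23 and -0.05 with single libraries left out).

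Pfn1 (chr11:70651850-70654644), profilin 1, which binds actin monomers, had 877, 683 and 1115 in WT and 863, 999 and 1198 CPM in KO. WT 2 was the lowest and KO 3 the highest, the groups overlapped, and the log2 difference was 0.19 ± 0.22, against 0.39 ± 0.22 without the library labelled WT replicate 3 and 0.03 without WT 2, the highest and lowest with single libraries left out. Of the 8 members in the fit over all genes, edgeR called 1, the gene they were chosen around, Gsn, which supports nothing here. Over all 12513 genes it called 9 (0.0719%). In the direction higher in KO the overall share was 0.016% (2 genes) and in the direction lower in KO 0.0559% (7 genes, none of them a member). DESeq2 called the same member, beside 0.959% of all genes (120). Gsn was also the only member in the fit whose groups did not overlap, higher in KO, beside 6.25% of all genes, and no member was lower in KO without overlap, beside 6.15%. The count of 1 became 0 when WT 1, the library labelled WT replicate 3, KO 1, KO 2 or KO 3 was left out, and stayed at 1 without WT 2. With the replicate number as a block in the fit it was also 0.

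**Figure D1:**
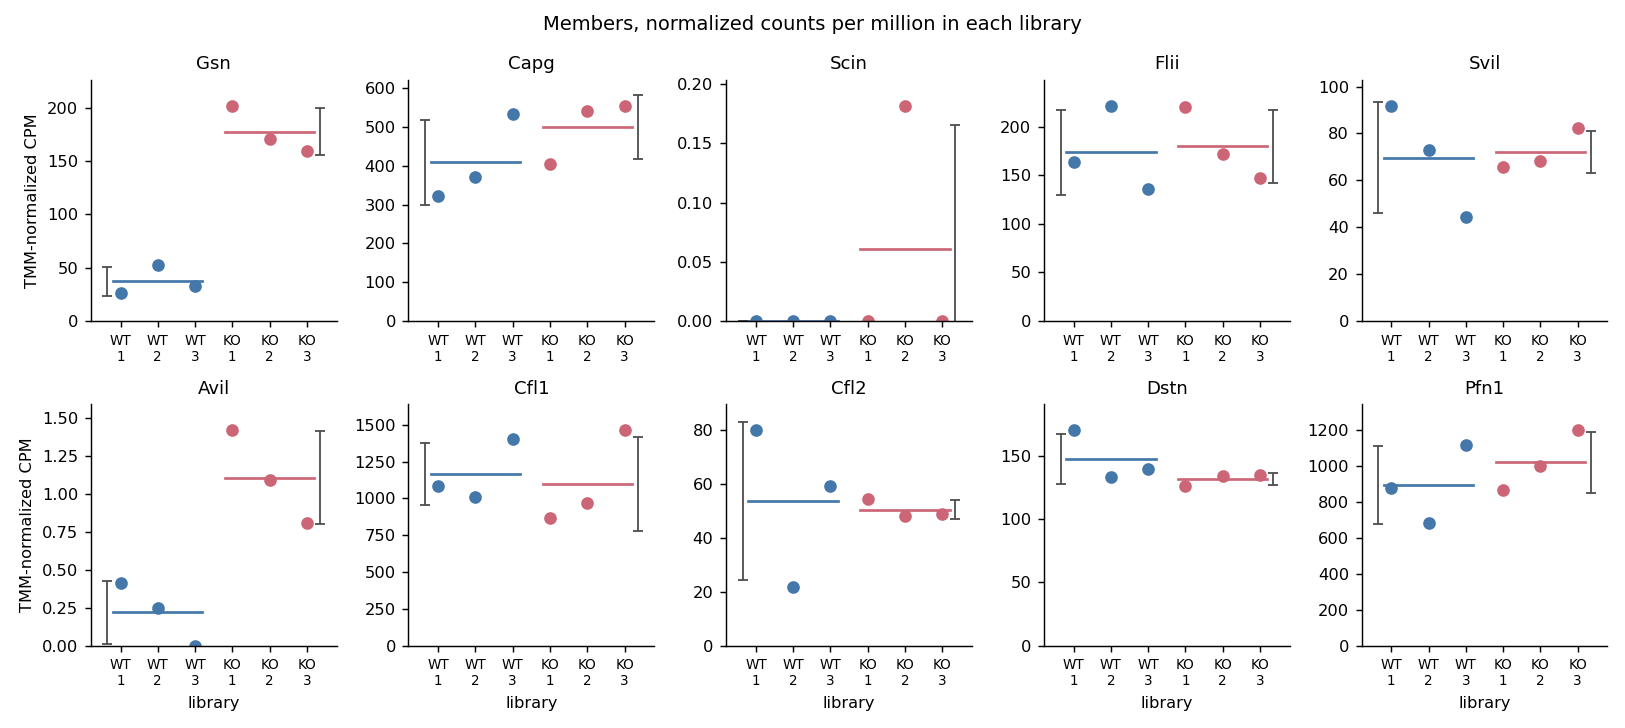
TMM-normalized CPM (vertical axes, each from 0) of the 10 members in the 3 WT (blue) and 3 KO (red) libraries; lines are group means and grey bars at the side are SD. Gsn lies between 26.2 and 52.5 CPM in WT and between 159.7 and 202 CPM in KO, whereas the WT and KO points of Capg, Flii, Svil, Cfl1, Cfl2, Dstn and Pfn1 overlap, and the panels of Scin and Avil rest on few reads.

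Levels of different genes were compared as FPKM, each with the 1 length per gene that the deposited values imply. In WT the order of mean FPKM was Cfl1 (989.9 ± 121, SD, n = 3), Pfn1 (207 ± 40.7), Capg (96.4 ± 19.7), Dstn (76.1 ± 13.5), Flii (29.1 ± 8.3), Cfl2 (17.9 ± 10.2), Gsn (8.26 ± 3.19) and Svil (4.31 ± 1.68), with Avil and Scin near 0. Capg and Dstn, Flii and Cfl2, and Cfl2 and Gsn overlapped between libraries of WT. In KO, Gsn took place 5 of 10, at 40.9 ± 6.35 FPKM, between Dstn (69.8 ± 2.62) and Flii (31.1 ± 7.5), and among neighbours in that order only Gsn and Flii overlapped between libraries. Gsn read 6.12, 11.9 and 6.74 FPKM in WT and 47.6, 40.2 and 34.9 in KO. Cfl1 was at 962 ± 234 FPKM and Pfn1 at 246 ± 30.9 in KO. Without the library labelled WT replicate 3 the WT mean of Gsn was 9.02 FPKM. The implied lengths differ from the exonic bases in GENCODE for each of these genes but Dstn. They were 4404 bases for Gsn (exonic 3157), 4114 for Capg (2529), 5895 for Flii (5039), 16071 for Svil (10701) and 1148 for Cfl1 (2844). For Cfl2 they were 2940 (3266), for Dstn 1911 (equal) and for Pfn1 4190 (2405), more than the 2795 bases of its locus. With exonic bases as the length, an alternative chosen after seeing the data, Cfl1 came to 399.6 ± 48.8 in WT and 388 ± 94.5 in KO, and Pfn1 to 361 ± 70.9 and 428 ± 53.8. These 2 then overlapped in both groups, and Pfn1 came first in KO. Gsn kept places 7 and 5, at 11.5 ± 4.45 and 57 ± 8.86, but overlapped Svil as well as Cfl2 in WT and no longer Flii in KO. Capg and Dstn no longer overlapped in WT.

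Summed over the 8 genes of the gelsolin-villin family, the members of that family with Vil1 and Vill, FPKM came to 134, 157 and 165 in WT and 205, 224 and 209 in KO. This sum and the shares below rest on the implied lengths. The Gsn share of that sum was 4.55, 7.61 and 4.08% in WT and 23.2, 18 and 16.7% in KO. Every KO share of Gsn exceeded every WT share, which follows from the Gsn values above. As a percent of Capg, Gsn FPKM was 7.6, 13.2 and 5.69 in WT and 46.8, 29.4 and 26.9 in KO. Capg made up the largest share in every library, 59.9, 57.6 and 71.7% in WT and 49.5, 61.1 and 62% in KO, and the Capg shares of the groups overlapped. Vill, a villin-like gene, was read at 13.3, 12.2 and 16.4 in WT and 12.6, 11.3 and 15.7 FPKM in KO, so the groups overlapped. Of the actin-depolymerizing genes, Cfl1 took 89, 91.9 and 92.9% in WT and 89.9, 90.7 and 93.6% in KO of the FPKM of Cfl1, Cfl2 and Dstn together, and the groups overlapped.

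**Figure D2:**
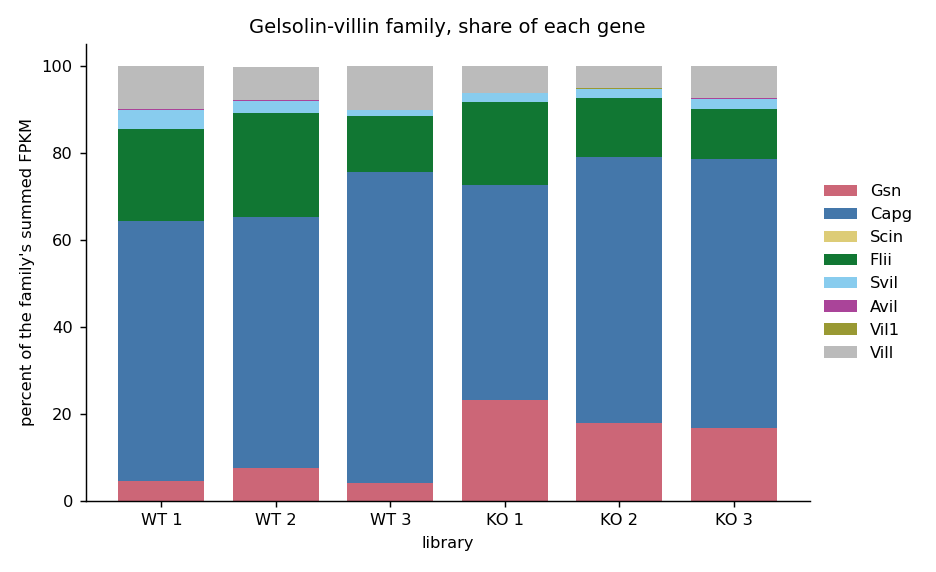
Share of each gene (stacked, percent of summed FPKM, vertical axis) in the gelsolin-villin family for each library (horizontal axis). The Gsn segment covers 4.08 to 7.61% in the WT libraries and 16.7 to 23.2% in the KO libraries, and Capg is the largest segment throughout.

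Lists of other actin genes, written with earlier results of these data known, give the setting of the members. They hold 139 genes, of which 117 were tested. edgeR called 0 higher and 2 lower in KO. The median log2 difference was 0.15 and 72 were higher, against a median of -0.01 and 49.5% higher over all genes. At an unadjusted p under 0.05 there were 7 higher and 9 lower, beside 368 higher and 347 lower of all 12513 genes. Of the 117, 18 were higher and 11 lower in KO with no overlap of groups, beside 6.25% and 6.15% of all genes. DESeq2 called 7, all lower, namely Acta1, Acta2, Actc1, Actn2, Actn3, Flnc and Rac1. The median of each list was the same with genes at 0 in KO set to their bound.

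Of the 6 actin isoforms 5 were tested, 2 higher and 3 lower in KO. Their median of -5.28 is the value of Acta2 and describes neither set. The 2 higher were the cytoplasmic actins Actb (0.38 ± 0.24) and Actg1 (0.44 ± 0.22), not called by edgeR or DESeq2. The 2 genes called by edgeR were among the 3 lower, both striated-muscle actins. Acta1 (skeletal alpha-actin) had 158, 195 and 188 reads in WT and 1, 0 and 1 in KO, a WT over KO ratio of 256 (95% exact binomial interval from 70.5 to 2118, counting error only; edgeR adjusted p = 0.0043). Actc1 (cardiac actin) had 104, 138 and 137 reads in WT and 0, 0 and 0 in KO, at least 45.8-fold lower in KO with 3 counts taken as the floor in each KO library (edgeR adjusted p = 0.025). Both were present in each of the 3 WT libraries and nearly absent from each KO library. The cytoplasmic actin Actb, the most abundant of the 6 isoforms in FPKM, stood at 159, 177 and 104 in WT and 219.8, 145 and 219 FPKM in KO, and its groups overlapped. Without WT 1, the library labelled WT replicate 3, KO 1, KO 2 or KO 3 the 2 calls became 1, as Actc1 was lost (edgeR adjusted p = 0.12, 0.1, 0.062, 0.084 and 0.073), and without both libraries numbered 3 neither was called.

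Genes that feed the cofilin cycle gave no call. Of 15 tested of 15 matched (Pdxp was not matched), 1 had an unadjusted p under 0.05, none was called by edgeR or DESeq2, and the median log2 difference was 0.13. Coro1a, a filament-binding coronin of blood cells, stood at 758, 713 and 695 in WT and 1046, 868 and 1028 CPM in KO, higher in each KO library (log2 difference 0.44 ± 0.17, edgeR adjusted p = 0.77), and the cofilin kinase Tesk1 at 3.08, 0.983 and 2.47 in WT and 2.63, 14 and 4.45 CPM in KO, with KO 2 alone well above the rest. Monomer binders (8 tested of 11) had a median of 0.21 and no unadjusted p under 0.05, with 0 called by edgeR or DESeq2. Among them thymosin Tmsb4x, the most abundant, stood at 299, 385 and 423 in WT and 342, 572 and 584 FPKM in KO, with overlapping groups, and the oxidoreductase Mical1, which disassembles filaments, at 29.3, 29.9 and 33.4 in WT and 40.9, 43.3 and 53.2 CPM in KO, each KO library above each WT library by a small margin (log2 difference 0.57 ± 0.32, edgeR adjusted p = 0.95). Filament end cappers (13 tested of 18) had a median of -0.09 with 0 called by edgeR or DESeq2. Their 1 unadjusted p under 0.05 was that of the muscle gene Lmod3, with 11, 17 and 15 reads in WT and 0, 0 and 0 in KO, at least 5.1-fold lower in KO by the same floor. Capzb, the beta subunit of capping protein and the most abundant, had a log2 difference of 0.00 ± 0.19, and Eps8, a capping and bundling protein, 0.63 ± 0.29 (edgeR adjusted p = 0.91).

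Genes of filament nucleation had medians above 0. The Arp2/3 complex and its activators (23 tested of 25) had a median of 0.17 with 2 unadjusted p under 0.05 and no call by edgeR or DESeq2. The complex subunit Arpc2, the most abundant, had a log2 difference of 0.37 ± 0.18, Arpc5 of 0.54 ± 0.23 and the activator Wasf2 of 0.48 ± 0.19, with edgeR adjusted p of 0.92, 0.82 and 0.77. Formins and elongators (14 tested of 18) had a median of 0.28 and 3 unadjusted p under 0.05, all higher in KO, with 0 called by edgeR or DESeq2. Diap3, a formin that extends unbranched filaments, had 147, 221 and 156 reads in WT and 531, 516 and 259 in KO, and Diap2 26, 120 and 22 in WT and 136, 159 and 163 in KO. KO libraries were above WT libraries in CPM for both formins, with log2 differences of 1.27 ± 0.37 and 1.72 ± 0.51 (edgeR adjusted p = 0.48 and 0.5). Vasp, the most abundant elongator, had 0.31 ± 0.20.

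Filament crosslinkers and side binders (22 tested of 27) had a median of 0.01 with 4 unadjusted p under 0.05, all lower in KO, of which edgeR called 0 and DESeq2 3. Flnc, filamin C of muscle, had 44, 64 and 55 reads in WT and 0, 0 and 0 in KO, at least 19.2-fold lower in KO by the same floor. Actn2, alpha-actinin 2 of muscle, had 34, 42 and 49 reads in WT and 0, 0 and 0 in KO, at least 15.5-fold lower. Neither was called by edgeR (adjusted p = 0.18 and 0.22), and both were by DESeq2. Tagln2, transgelin 2 of non-muscle cells and the most abundant of the list, stood at 183, 158 and 169.6 in WT and 220.4, 212 and 238 FPKM in KO, each KO library above each WT library, with a log2 difference of 0.35 ± 0.18.

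Rac1, a GTPase that drives branched filament growth through Wasf2, had 1471, 4785 and 1270 reads in WT and 670, 926 and 768 in KO. As CPM these were 302, 588 and 393 in WT and 136, 169 and 155 in KO, each KO library below each WT library, with a log2 difference of -1.48 ± 0.26 (edgeR adjusted p = 0.16). DESeq2 called it (adjusted p = 3.3e-05). Of the SRF and MRTF factors, which control many actin genes, 3 of 4 were tested with a median of 0.24 and no unadjusted p under 0.05 or call by edgeR or DESeq2. Srf stood at 8, 11.2 and 16.7 in WT and 24.7, 10.9 and 17 CPM in KO and Mkl1 at 111, 109 and 216 in WT and 135, 167 and 212 CPM in KO, overlapping in both.

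**Figure D3:**
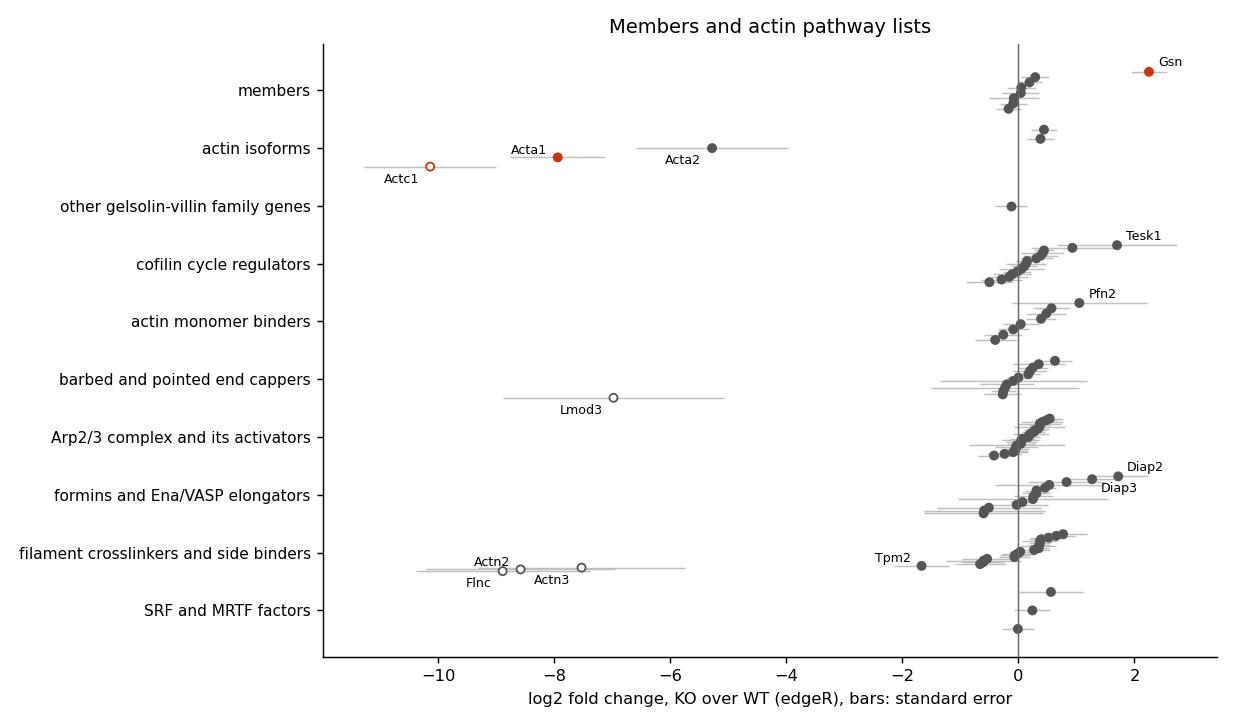
Log2 fold changes of KO over WT (horizontal axis, edgeR, bars are SE) for the 8 members in the fit and the tested genes of 9 actin lists (vertical axis, Twf1 in both its lists). Red symbols passed the threshold and open symbols are genes with 0 counts in all KO libraries, whose fitted values depend on a prior count. Gsn lies at 2.25 on the right, and the muscle genes Actc1, Flnc, Actn2, Acta1, Actn3, Lmod3 and Acta2 lie on the left, far from the rest.

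Markers of other cell types also differed between the groups. The 21 skeletal muscle markers, of which 14 were tested and Pvalb was at 0 throughout, summed to 236, 162 and 401 CPM in WT and 12, 47 and 23.5 CPM in KO. Of the tested markers 13 were lower in KO and 1 higher. Myh3, embryonic myosin heavy chain, with the most reads among them (by FPKM Acta1 was ahead of it), had 283, 346 and 329 reads in WT and 0, 0 and 0 in KO, at least 115-fold lower in KO (edgeR adjusted p = 0.0043). It and Acta1 were the 2 markers called by edgeR, DESeq2 called 9, and every WT sum exceeded every KO sum. Of the 6 smooth muscle markers, led in reads by Des, edgeR called 0 and DESeq2 2, with 2 at an unadjusted p under 0.05, both lower in KO. They summed to 23.2, 21.6 and 54.7 CPM in WT and 0.608, 0 and 1.01 CPM in KO. Myh11, Cnn1 and Actg2 were at 0 throughout, and Tagln had 0, 9 and 1 reads in WT and 3, 0 and 0 in KO. The sum in WT thus came almost wholly from Des and Acta2, and a separate smooth muscle source was not tested. In the opposite direction the 12 neutrophil markers summed to 92.1, 144 and 100.4 CPM in WT and 310.2, 309.9 and 566 CPM in KO, most of it from 1 gene, the azurophil granule protease Prtn3. Without Prtn3 the sums were 9.02, 2.58 and 13.9 CPM in WT and 5.67, 2.73 and 210.2 CPM in KO, so that only KO 3 stood apart, through Mpo and Elane (867 and 115 reads). Prtn3 had 405, 1150 and 280 reads in WT and 1503, 1688 and 1756 in KO, and its log2 difference of 1.63 ± 0.25 was not past the threshold (edgeR adjusted p = 0.065) but was by DESeq2 (adjusted p = 1.5e-06). Of the remaining genes in the list, Ly6g, Ltf and Mmp8 were at 0 throughout. S100a9 had 10, 19 and 13 reads in WT and 7, 0 and 17 in KO. S100a8 had 4, 0 and 3 in WT and 1, 3 and 12 in KO. Ngp had 0, 1 and 12 in WT and 0, 0 and 9 in KO. Camp, Retnlg and Cxcr2 had at most 11 reads in a library. The 12 monocyte and macrophage markers summed to 21.9, 55.9 and 75.1 CPM in WT and 84.1, 83.4 and 124 CPM in KO, and this difference rested on Cd68, which DESeq2 called and edgeR did not. Without Cd68 the sums were 7.79, 32.9 and 34.3 CPM in WT and 23.5, 11.5 and 30.4 CPM in KO, which overlap. Cd68 had 69, 187 and 132 reads in WT and 299, 395 and 464 in KO. Adgre1, another macrophage marker, had 0, 0 and 0 reads in WT and 2, 11 and 20 in KO, C1qa 0, 88 and 26 in WT and 12, 8 and 29 in KO, C1qb 11, 10 and 15 in WT and 42, 14 and 30 in KO and C1qc 24, 22 and 28 in WT and 13, 11 and 54 in KO. Csf1r had 0, 13 and 39 reads in WT and 0, 19 and 10 in KO, Mrc1 was read in KO 1 alone (47 reads) and Ccr2 in WT 2 alone (106 reads), and Cx3cr1 had 1 read in WT 2, 1 in the library labelled WT replicate 3 and none elsewhere. Of the 3 tested neutrophil and 4 tested monocyte and macrophage markers edgeR called 0, DESeq2 called Prtn3 and Cd68, and the same 2 had an unadjusted p under 0.05. The 9 megakaryocyte and platelet markers summed to 594, 365 and 418 CPM in WT and 528, 489 and 434 CPM in KO, overlapping between groups. Without Vwf the sums were 258, 172 and 237 CPM in WT and 421, 343 and 367 CPM in KO. Every KO sum was then above every WT sum. Estimates for single genes of the list had either sign, and none was called by edgeR or DESeq2. Vwf, with the most reads, stood at 337, 193 and 181 in WT and 107, 146 and 67.8 CPM in KO, each KO library below each WT library (log2 difference -1.15 ± 0.33, edgeR adjusted p = 0.48). Itga2b stood at 166, 76.3 and 106 in WT and 259, 163 and 207 CPM in KO, with overlapping groups (0.85 ± 0.31, edgeR adjusted p = 0.71). Of the 8 tested, 6 were higher and 2 lower in KO, edgeR and DESeq2 called 0, and 3 higher and 1 lower had an unadjusted p under 0.05. With no overlap of groups 4 were higher and 1 lower in KO, beside 6.25% and 6.15% of all genes.

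The part of these markers in the Gsn difference was not tested. The Gsn log2 fold change was 2.32 without KO 3, the library high in Mpo and Elane, and no longer past the threshold.

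**Figure D4:**
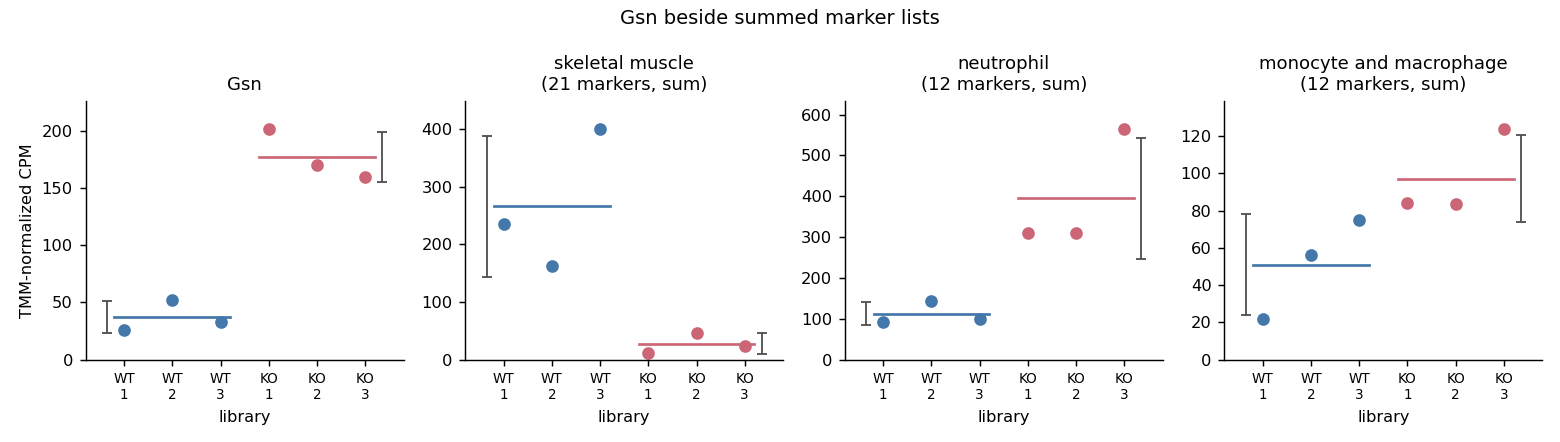
Gsn and the summed CPM of 3 marker lists (vertical axes from 0) in the WT (blue) and KO (red) libraries; lines are means and grey bars SD. Gsn is higher in the KO libraries, as are the neutrophil and macrophage sums, which rest on Prtn3 (with Mpo in KO 3) and on Cd68, and the muscle sum is lower, at 12 to 47 CPM against 162 to 401 CPM.

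Across the 6 libraries the genes whose log2 CPM followed Gsn most closely, among 10136 genes with a mean of at least 50 counts, were Nagk (r = 0.998), Ccdc88b (r = 0.988), Tdg (r = 0.988), Mylip (r = 0.987) and Prtn3 (r = 0.985). Tdg, a DNA glycosylase, had 113, 252 and 84 reads in WT and 363, 458 and 354 in KO, and Mylip, a ubiquitin ligase of the LDL receptor, 76, 179 and 47 in WT and 232, 202 and 200 in KO. Each of these genes was higher in every KO library than in any WT library, as Gsn was, and the libraries form 2 groups, so r largely reflects the step between them. The genes that ran most against Gsn were Cmss1 (r = -0.976), Arv1 (r = -0.983) and Nabp2 (r = -0.983), each lower in KO.

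Genes near Gsn on its chromosome were read for the same contrast. Of 30 annotated genes whose start lies within 500 kb, 24 were in the tables and 11 tested, of which edgeR called 0 (1 at an unadjusted p under 0.05; DESeq2 called 0), with 5 higher in KO and a median log2 difference of -0.10. Rab14, the nearest tested gene at -55.3 kb, had 248, 162 and 167 in WT and 264, 229 and 211 CPM in KO, a log2 difference of 0.29 ± 0.23, and Stom, at 80.6 kb, 19.3, 23.8 and 5.87 in WT and 18.2, 13.3 and 9.51 CPM in KO, a difference of -0.27 ± 0.60. Groups overlapped for both. Dab2ip, at 302 kb, was the lowest, with 282, 560 and 321 reads in WT and 136, 248 and 185 in KO, a difference of -1.03 ± 0.33 (edgeR adjusted p = 0.61), and each KO library lay below each WT library.

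**Figure D5:**
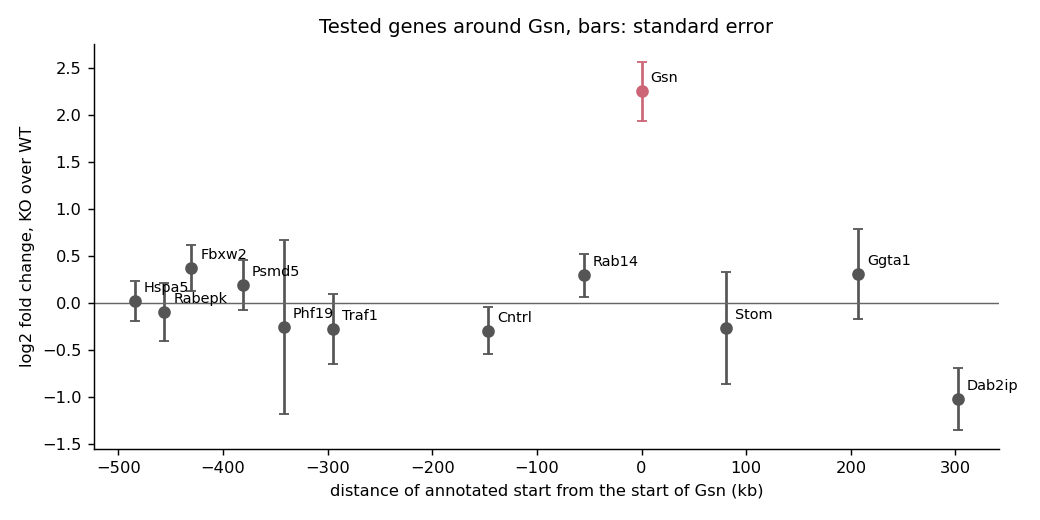
Log2 fold changes of KO over WT (vertical axis, bars are SE) of the 11 tested genes within 500 kb of the Gsn start against the distance of their starts (horizontal axis, kb). Gsn lies at 2.25 whereas its neighbours lie between -1.03 and 0.37.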

How the data were processed

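Read counts per gene were deposited by the authors without normalization, and the deposited FPKM values equal those counts divided by the library total and by 1 length per gene, which was constant between libraries to within 0.0703% over 17007 genes. That length is implied by the values and was not taken from an annotation. The submitters' processing notes name TopHat, HTSeq and mm10; versions, annotation and use of strand are not given in the sources used here. Groups and replicate numbers came from the labels.

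Counts were tested in R 4.3.3 with edgeR 4.0.16 (filterByExpr, TMM, robust quasi-likelihood test, Benjamini-Hochberg adjustment over all genes at 0.05); the procedure was tested on simulated counts. The SE is the log2 fold change divided by the root of the F statistic. Alternatives used DESeq2 1.42.0, limma 3.58.1 on log2(FPKM + 1) or log2(FPKM + 0.1), other scaling or filters, a replicate block and fewer libraries. The floor was 3 counts in each library, from 0.369 to 0.927 CPM.

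Members, lists and rules were chosen with earlier results of these data known. Besides Med23 and members, the text names, in each actin list described on its own, called genes, the most abundant by FPKM and the 2 with the smallest unadjusted p; the 5 genes most and 3 least like Gsn; genes within 500 kb; and, in marker lists, called genes and that with the most reads. 1 further actin list enters the totals only. Acta2, Actg1, Actn3, Rac1, Ly6a, Pvalb, Itga2b, Myh11, Cnn1, Actg2 and Tagln were chosen after their values were seen. So were the named neutrophil, macrophage and sorted-against markers, except Cd34, Prtn3 and Cd68. Coordinates are from GENCODE M21 (GRCm38), which held 34267 of the 34745 identifiers.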

Additional observations from a re-analysis of the deposited data

How the results depend on the processing

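The genes called numbered 9. DESeq2 called 120 (50 higher, 70 lower in KO), limma on log2(FPKM + 1) 15 with the FPKM filter and 1 without it, and leaving out 1 library each between 5 (without WT 1) and 11 (without WT 2). The 1 member called became 0 with limma without the FPKM filter and without both libraries numbered 3, and lay between 0 and 1 with single libraries left out. The Gsn log2 fold change of 2.25 was then no longer past the threshold, at 2.22 and 2.24, and lay between 2.05 and 2.60 with single libraries left out. These fits had fewer samples or more genes; the cause was not tested. The 2 actin list genes called became 7 with DESeq2, 0 with at least 10 counts in every sample (which drops genes at 0 in KO), 0 with limma without the FPKM filter, 0 without both libraries numbered 3, 1 without the muscle markers (which takes Acta1 out), and lay between 1 and 2 with single libraries left out.

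With the replicate number as a replicate block, 5 genes, 0 members and 1 actin list gene were called, and the Gsn log2 fold change was 2.30. Deviations of same-numbered libraries correlated at 0.163, 0.031 and 0.162. Without values for differently numbered libraries beside them, these do not show whether the numbers pair the samples. The Y-linked sums were 0.309 CPM in the library labelled WT replicate 3 and 0 CPM in KO 3, far below the rest. The labels name no pairing, and the main fit used none.

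The Vill difference, -0.13, was 0.06 without the library labelled WT replicate 3 and -0.32 without KO 3, the range with single libraries left out. The Capzb difference, 0.00, was -0.01 with DESeq2, -0.01 with upper-quartile scaling, -0.03 without WT 1, -0.07 without WT 2 and -0.11 without KO 3, and reached 0.11 without the library labelled WT replicate 3. Of 497 values of 32 genes, a tally that leaves out Gsn, 10 were no longer past the threshold (Acta1 and Actc1) and 3 passed it by DESeq2 (Flnc, Actn2 and Rac1). Sign changed in the 6 values of Vill and Capzb above and also in some of the members Cfl1, Cfl2, Flii and Svil, which lay on both sides of 0. With single libraries left out, the Stom difference (-0.27) lay between -0.66 and 0.12 and that of Dock2 (0.22) between 0.01 and 0.33. The rank of Gsn by FPKM did not move under the alternatives run, nor with exonic bases as the length, chosen after seeing the data, whereas Pfn1 then passed Cfl1 in KO. Depth limits Scin and Avil, with at most 7 reads in a library.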

Other observations

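Lists of non-muscle myosins and of Rac and Cdc42 exchange factors were written after the first results were seen, but before their own values were. Of 16 myosin genes, 14 were tested; edgeR and DESeq2 called 0, no unadjusted p was under 0.05, and the median log2 difference was 0.07. Myl12b, a myosin light chain and the most abundant in FPKM, stood at 268, 235 and 207 in WT and 245, 219 and 225 FPKM in KO, with overlapping groups. Of the exchange factors, which load Rac and Cdc42 with GTP, all 16 were tested; edgeR and DESeq2 called 0, 2 had an unadjusted p under 0.05, both higher in KO, and the median was 0.24. Tiam1, a Rac activator, had 126, 201 and 136 reads in WT and 215, 314 and 479 in KO, with a log2 difference of 1.10 ± 0.39 (edgeR adjusted p = 0.71), each KO library being above each WT library in CPM. Dock2, the most abundant, had 0.22 ± 0.23, with overlapping groups, and Dock8 had 0.57 ± 0.24 (edgeR adjusted p = 0.81).

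In 5 other marker lists edgeR and DESeq2 called 0 genes. Endothelial markers, led by Tie1, summed to 563, 588 and 535 CPM in WT and 651, 599 and 577 CPM in KO, erythroid markers, led by Hbb-bt, to 46.7, 44.5 and 118 CPM in WT and 38.1, 30.9 and 67 CPM in KO, and B cell markers, led by Cd79b, to 44.3, 62.9 and 68.6 CPM in WT and 54.3, 63.9 and 75.3 CPM in KO. Osteoclast markers, led by Acp5, summed to 0, 3.32 and 0 CPM in WT and 4.25, 4.19 and 8.3 CPM in KO and stroma and fibroblast markers, led by Pdgfrb, to 14.6, 21.9 and 32.1 CPM in WT and 14.2, 11.5 and 16.2 CPM in KO. Of these lists, 1 erythroid gene had an unadjusted p under 0.05, lower in KO, and the groups overlapped in these sums, except that every KO sum of osteoclast markers was above every WT sum. Those osteoclast sums rest on 0, 27 and 0 reads in WT and 21, 23 and 41 in KO. Acp5 itself overlapped, at 0, 3.07 and 0 in WT and 1.42, 2.73 and 7.28 CPM in KO.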
